A study of Mus musculus with 5 samples.

Results

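Transcripts of the basement membrane were followed in mouse embryos that had lost Oct4 in the epiblast. The set comprised 10 genes, the laminin chains Lama1, Lama5, Lamb1 and Lamc1, the collagen IV chains Col4a1 and Col4a2, the nidogens Nid1 and Nid2, the perlecan gene Hspg2 and Sparc. They were chosen by name from the 49671 genes of the count table, and all 10 passed the filter on low counts that left 12067 genes for testing. RNA was sequenced from single embryos at E6.75, each sample holding the epiblast and visceral endoderm (VE), after the extra-embryonic ectoderm (ExE) had been dissected away, with 2 embryos called SO+ and 3 called SO-. By their sample labels, SO+ embryos were Sox2Cre-/-; Oct4 fl/+, that is, without Cre and with an intact Oct4 allele beside a floxed allele. SO- embryos were Sox2Cre+/-; Oct4 fl/-, with the Cre transgene and a floxed beside a null allele, so that every embryo carried a floxed allele. The Sox2 promoter drives Cre mainly in the epiblast, loss of Oct4 is mosaic at first, and the VE of an SO- sample keeps its floxed allele for the most part. The comparison asked whether the transcripts of the matrix on which the epiblast rests differed between the genotypes at this stage.

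A basement membrane is a thin sheet of matrix on the basal side of an epithelium. Laminins are trimers of an alpha, a beta and a gamma chain that polymerise on the cell surface, where integrins and dystroglycan hold them, and collagen IV forms a separate, covalently cross-linked network that gives the sheet its strength. Nidogens and the proteoglycan perlecan bridge the networks. In the egg cylinder such a sheet separates the epiblast from the VE, and it is breached at the primitive streak when cells leave the epiblast during gastrulation.

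Library size differed greatly between the genotypes. Total counts were 27538119 and 27047148 in SO+ embryos 1 and 2, against 4134617, 1117566 and 4191498 in SO- embryos 1, 2 and 3. Levels are given as counts per 1e6 (CPM) after scaling by edgeR's TMM factors, and 3 counts correspond to 0.109 and 0.111 CPM in SO+ and to 0.731, 2.68 and 0.723 CPM in SO-, a floor that reflects counting error alone. The second of the paired library indexes was the same in both SO+ libraries and differed from that of all SO- libraries, so index and genotype cannot be told apart. Pou5f1, which encodes Oct4, stood at 919.5 and 437.0 CPM in SO+ and at 28.0, 12.5 and 44.1 CPM in SO-, a log2 fold change of -4.43 ± 0.33 (SE; edgeR adjusted p = 3.94e-05). The libraries thus matched their labels.

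None of the 10 basement membrane genes passed the test of a difference between SO- and SO+ embryos. In edgeR's quasi-likelihood test with Benjamini-Hochberg adjustment over all genes, 0 of 10 had an adjusted p under 0.05, beside 2.35% of all genes tested (1.42% higher and 0.928% lower in SO-), and 1 of 10, Lamb1, had an unadjusted p under 0.05, beside 13.7% of all genes. DESeq2 called 0 of 10 beside 2.54% of all genes and limma-voom 0 of 10 beside 0.754%, each again with 1 of 10 at an unadjusted p under 0.05. With so small a share called over all genes, 0 of 10 is near the background and is no result about this set. The intervals bound each difference. The 95% interval of the fold change lay within 2-fold in either direction for 9 of 10 genes and within 1.5-fold for 6 of 10. Estimated log2 fold changes, SO- over SO+, ran from -0.17 for Lama5 to 0.36 for Lamb1, with a median of 0.15, and 9 of 10 were above 0, whereas over all genes tested the median was -0.0019 and 49.7% were above 0. These estimates come from the same 5 embryos and are not independent of each other. In a bulk sample, fewer cells of a type and less RNA per cell cannot be told apart, and the same holds for each level given here.

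**Figure D1:**
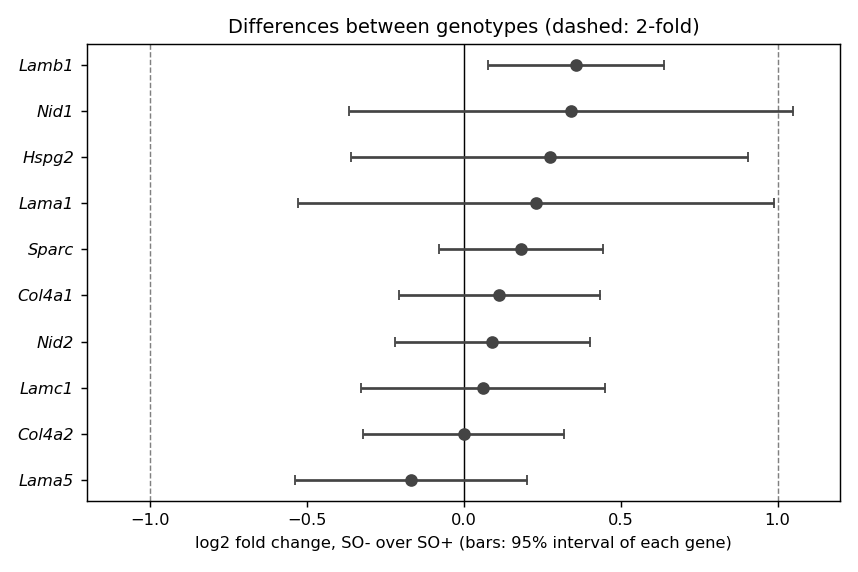
Log2 fold change of each basement membrane gene, SO- over SO+, on the horizontal axis, with points for the edgeR estimate, bars for its 95% interval and dashed lines at 2-fold. The interval of Lamb1 lies wholly above 0 before adjustment, that of Nid1 reaches 1.05, and the other intervals include 0 and stay inside the dashed lines.

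Per kilobase of exon, which allows genes to be compared with each other, the 10 transcripts spanned a wide range. Sparc, a secreted glycoprotein that binds collagens, was the most abundant, with a mean over the 5 embryos of 53.7 CPM per kb and a range of 45.9 to 61.6. Nid2 followed with 33.3 CPM per kb and a range of 29.4 to 41.2. Both were separated from their neighbours in all embryos. Lama5, Lamb1 and Col4a2 came next, with means of 15.3, 12.6 and 11.8 CPM per kb, and their ranges overlapped. Col4a1 had a mean of 9.35 and Lamc1 of 5.96 CPM per kb, and the range of each was clear of the next genes above and below it in this order, although that of Col4a1, 8.38 to 10.5, reached the lowest value of Lamb1, 10.2. Nid1, Hspg2 and Lama1 formed the lowest group, with means of 2.71, 1.62 and 1.19 CPM per kb and overlapping ranges. Exon lengths ran from 3788 bases for Sparc to 14307 for Hspg2, and 9 of 10 genes were longer than the median of all genes tested, 4368 bases. Evenness of coverage along the transcripts was not examined.

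**Figure D2:**
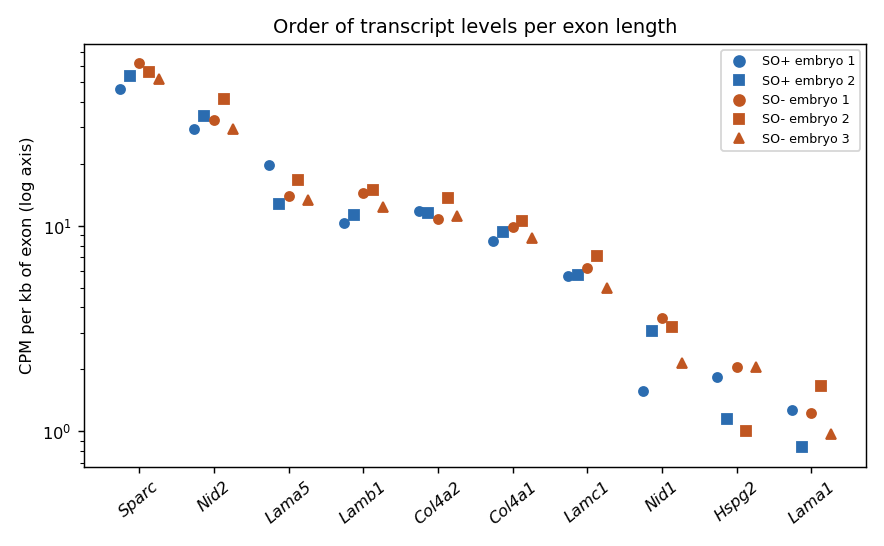
Level of each transcript in CPM per kb of exon on a log axis, with 1 point for each embryo and genes ordered by their mean. Sparc and Nid2 stand clear at the top, Lama5, Lamb1 and Col4a2 overlap in the middle, and Nid1, Hspg2 and Lama1 overlap at the bottom.

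Laminin alpha chains carry the domain that anchors the trimer to cell-surface receptors. Lama1 (ENSMUSG00000032796, chromosome 17, 67697259 to 67822647, plus strand, GRCm38) encodes the alpha 1 chain of the early embryonic laminin. Its level was 12.3 and 8.09 CPM in SO+ embryos 1 and 2 and 11.9, 16.1 and 9.40 CPM in SO- embryos 1, 2 and 3. Genotypes overlapped, and the value in SO- embryo 2 rested on 18 counts, with an exact Poisson interval of 9.52 to 25.4 CPM for counting error alone. The log2 fold change was 0.23 ± 0.35 (SE; edgeR adjusted p = 0.866), with a 95% interval of -0.53 to 0.99. Without SO+ embryo 2 it was -0.047.

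Lama5 (ENSMUSG00000015647, chromosome 2, 180176373 to 180225859, minus strand) encodes the alpha 5 chain, the broadly used alpha chain of epithelial basement membranes. Its level was 225.6 and 144.2 CPM in SO+ and 157.9, 189.2 and 151.9 CPM in SO-. All SO- values thus lay between the SO+ values, and Lama5 was the only gene of the set with an estimate below 0, at -0.17 ± 0.17 (SE; edgeR adjusted p = 0.759; 95% interval -0.54 to 0.20). The SO+ embryos alone differed 1.56-fold, with an exact binomial interval of 1.502 to 1.63 for counting error, and without SO+ embryo 1 the estimate turned to 0.18. Lama5 made up 90.9% to 94.0% of the alpha chain transcripts per kb in all 5 embryos.

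The Lama5 promoter is shown because Lama5 was the most abundant laminin transcript. The 250 bases upstream of its RefSeq start (GRCm38.p6, chr2:180225860-180226109, minus strand, 5′ to 3′) hold 4 copies of the GC box GGGCGG, which Sp-family factors bind, counted on both strands and set in capitals.
Lama5 promoter: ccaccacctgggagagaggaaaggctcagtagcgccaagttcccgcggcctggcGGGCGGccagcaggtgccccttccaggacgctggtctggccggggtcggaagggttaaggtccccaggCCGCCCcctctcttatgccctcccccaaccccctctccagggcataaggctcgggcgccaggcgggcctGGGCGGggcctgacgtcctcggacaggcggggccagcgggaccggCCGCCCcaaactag
Promoter windows of 300 bases, 250 before and 50 after the start, were found for 7 of 10 genes, namely Lama5, Lamb1, Col4a1, Col4a2, Nid1, Hspg2 and Sparc. A GC box was present in 6 of these 7 windows, all but that of Sparc, beside 35.7% of 32851 mouse windows. The windows of Col4a1 and Col4a2 overlap by 78 bases, so the only copy of Col4a1 was also counted for Col4a2. The share over all windows was not matched for GC content. Copies ranged from 1 in Col4a1 and Nid1 to 5 in Hspg2, and the GC content of the windows from 55.3% to 74.0%. The octamer ATGCAAAT, the classical POU factor motif, was in 0 of 7 windows beside 1.74% of all, and the TATA box TATAAA, the AP-1 motif TGANTCA and the GATA motif AGATAA were likewise in 0 of 7, beside 13.6%, 7.81% and 11.2% of all windows. Letters missing from a short window say nothing about where a factor binds elsewhere.

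The beta and gamma chains complete the laminin trimer. Lamb1 (ENSMUSG00000002900, chromosome 12, 31265234 to 31329644, plus strand) encodes the beta 1 chain. Its level was 101.6 and 111.3 CPM in SO+ and 142.3, 148.1 and 121.8 CPM in SO-. All SO- values were above both SO+ values, and Lamb1 was the only gene of the 10 without overlap, beside 29.3% of all genes tested (14.2% with all SO- values higher and 15.1% with all lower). The log2 fold change of 0.36 ± 0.13 (SE; 95% interval 0.08 to 0.64) had an unadjusted p of 0.0159, and it missed the threshold once adjusted over all genes (edgeR adjusted p = 0.213). With each embryo left out in turn the estimate stayed between 0.29 and 0.44.

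Lamc1 (ENSMUSG00000026478, chromosome 1, 153218922 to 153332786, minus strand) encodes the gamma 1 chain, which most laminin trimers contain. Its level was 47.2 and 47.6 CPM in SO+ and 51.6, 58.9 and 41.0 CPM in SO-. The SO- values fell on either side of the SO+ values, which were nearly equal (a ratio of 0.992, exact binomial interval 0.918 to 1.07). Its log2 fold change was 0.06 ± 0.18 (SE; edgeR adjusted p = 0.940; 95% interval -0.33 to 0.45), and -0.036 without SO- embryo 2.

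Col4a1 and Col4a2 encode the chains of the main collagen IV trimer and lie head to head on chromosome 8. Col4a1 (ENSMUSG00000031502, 11198423 to 11312826, minus strand) stood at 62.5 and 69.7 CPM in SO+ and at 73.1, 78.5 and 65.1 CPM in SO-. Col4a2 (ENSMUSG00000031503, 11312805 to 11449287, plus strand) stood at 78.3 and 76.2 CPM in SO+ and at 71.4, 90.1 and 74.0 CPM in SO-. Values of the genotypes overlapped for both genes. The log2 fold change was 0.11 ± 0.15 for Col4a1 (SE; edgeR adjusted p = 0.829; 95% interval -0.21 to 0.43) and 0.00017 ± 0.15 for Col4a2 (SE; edgeR adjusted p = 1.00; 95% interval -0.32 to 0.32). That of Col4a2 has no firm sign, at -0.089 without SO- embryo 2 and -0.025 without SO+ embryo 2. Summed per kb, collagen IV transcripts ranged only from 19.9 to 24.1 CPM per kb across the 5 embryos.

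The start region of the pair is shown because the annotated exons share 22 bases on opposite strands, set in capitals, and the use of strand in counting is not stated. The 30 bases run from chr8:11312801-11312830 on the plus strand of GRCm38.p6, with Col4a2 starting rightwards at 11312805 and Col4a1 leftwards at 11312826.
Col4a1-Col4a2 start sites: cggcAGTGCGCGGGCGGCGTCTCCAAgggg
The shared bases were 0.295% of the exon length of Col4a1 and 0.332% of that of Col4a2.

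Among the linkers, Nid2 (ENSMUSG00000021806, chromosome 14, 19751265 to 19811787, plus strand) was far more abundant than Nid1. Nid2 stood at 152.0 and 176.8 CPM in SO+ and at 168.1, 213.3 and 151.9 CPM in SO-, with overlap and a log2 fold change of 0.09 ± 0.14 (SE; edgeR adjusted p = 0.871; 95% interval -0.22 to 0.40). Without SO+ embryo 1 or SO- embryo 2 the estimate was -0.021 or -0.041. Over 437 bases, 8.45% of its exon length, Nid2 shares sequence with the antisense gene Rtraf. Rtraf had 8903 and 8123 counts in SO+ and 1227, 308 and 1372 in SO-. These are raw counts, not scaled for the larger SO+ libraries, and show no difference between genotypes by themselves. Without knowledge of strand, reads over the shared bases cannot be assigned to either gene with certainty.

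Nid1 (ENSMUSG00000005397, chromosome 13, 13437551 to 13512269, plus strand) showed the widest gap between the SO+ embryos of the 10 genes. Its level was 10.9 and 21.3 CPM in SO+ and 24.6, 22.3 and 15.0 CPM in SO-. SO+ embryo 1 was the lowest of the 5, and SO+ embryo 2 lay among the SO- values. The SO+ embryos differed 1.95-fold, with an exact binomial interval of 1.70 to 2.25 for counting error. This spread is wider than the difference between genotypes, a log2 fold change of 0.34 ± 0.33 (SE; edgeR adjusted p = 0.739; 95% interval -0.36 to 1.05). Without SO+ embryo 1 the estimate was -0.07, and without SO+ embryo 2 it was 0.90.

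Hspg2 (ENSMUSG00000028763, chromosome 4, 137468769 to 137570630, plus strand) encodes perlecan, a very large heparan sulphate proteoglycan. Its level was 26.2 and 16.4 CPM in SO+ and 29.5, 14.3 and 29.4 CPM in SO-. SO- embryo 2 was the lowest of the 5, on 16 counts and a Poisson interval of 8.16 to 23.2 CPM, while SO- embryos 1 and 3 were the highest. The log2 fold change was 0.27 ± 0.29 (SE; edgeR adjusted p = 0.776; 95% interval -0.36 to 0.91), and -0.019 without SO+ embryo 2.

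Sparc (ENSMUSG00000018593, chromosome 11, 55394500 to 55423183, minus strand) stood at 173.9 and 202.4 CPM in SO+ and at 233.4, 210.6 and 196.3 CPM in SO-. Only SO- embryo 3 fell below an SO+ value. This gave a log2 fold change of 0.18 ± 0.12 (SE; edgeR adjusted p = 0.576; 95% interval -0.08 to 0.44), the tightest interval of the set.

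**Figure D3:**
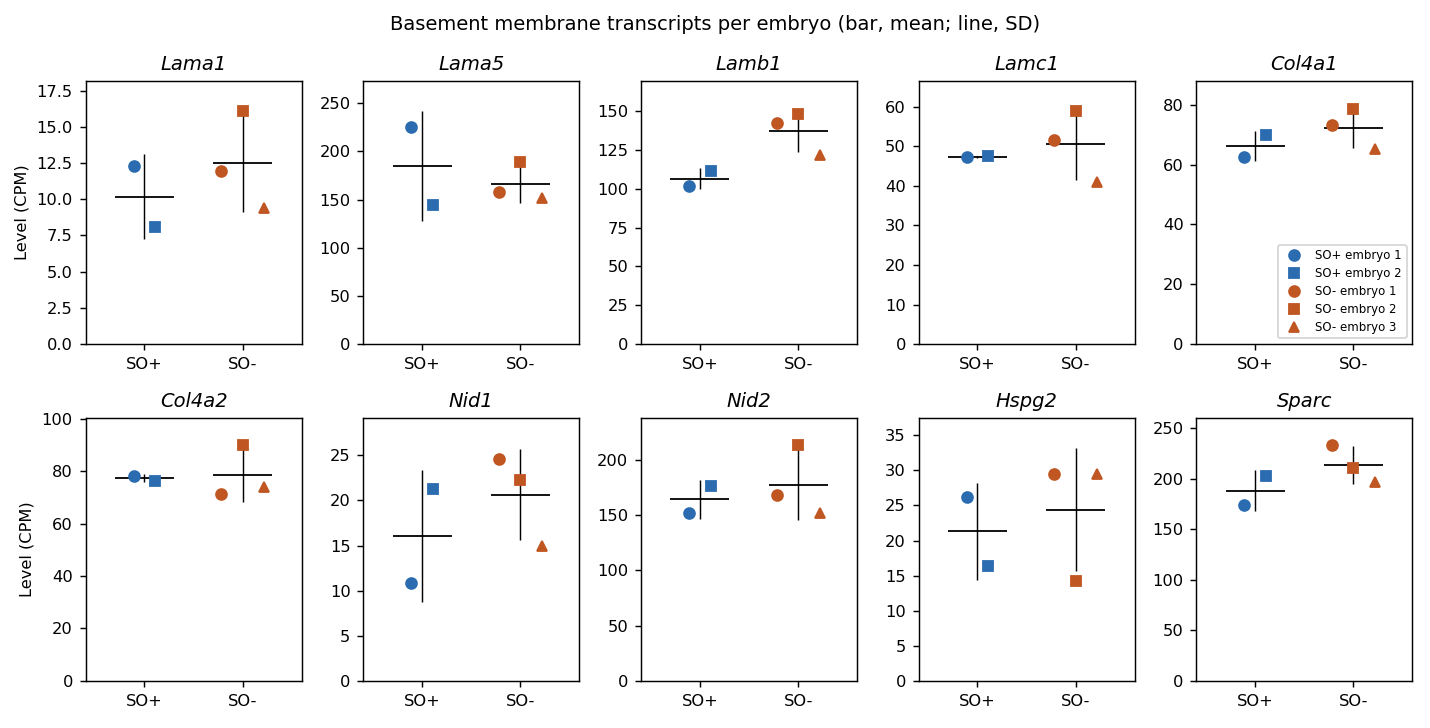
Level in CPM of each basement membrane gene in every embryo, in 1 panel per gene with axes from 0, with points for embryos, horizontal bars for the mean and vertical lines for the SD (n = 2 SO+ and n = 3 SO-). Values of the genotypes overlap in every panel but that of Lamb1, where the SO- embryos sit between 121.8 and 148.1 CPM, above both SO+ embryos.

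The spread between embryos of the same genotype was set beside the ratio of the genotype means in CPM. The ratio of the higher to the lower SO+ embryo exceeded that ratio, in whichever direction it lay, for 8 of 10 genes. The range over the SO- embryos exceeded it for 9 of 10. A range and a ratio of means are unlike measures, and the share over all genes was not counted. These counts are thus no result about the set. Counting error adds to the SO- range, with 16 Hspg2 and 18 Lama1 counts in embryo 2. Within SO-, embryo 3 held the lowest value for 8 of 10 genes and embryo 2 the highest for 7 of 10. Embryo 2 was also the highest of all 5 for 6 of 10. Summed over the set, levels were 890.5 and 873.9 CPM in SO+ and 963.7, 1041 and 855.8 CPM in SO-, so that the lowest and the highest sums were both SO-.

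Markers of the VE, the endoderm layer that lies against the epiblast, also varied among the SO- embryos. The summed level of 12 VE markers was 3138 and 3587 CPM in SO+ and 4990, 4843 and 3104 CPM in SO-, with SO- embryo 1 the highest and SO- embryo 3 the lowest of all. None of the 12 passed in edgeR, beside 2.35% of all genes, and 5 of 12 had an unadjusted p under 0.05, beside 13.7%. Estimates were above 0 for 11 of 12, with a median log2 fold change of 0.38. Without SO- embryo 3, however, 5 of 12 passed, where 1.83% of all genes were called. Alpha-fetoprotein, Afp, the apolipoprotein Apoa1 and the endocytic adaptor Dab2 were the highest of the 12, with log2 fold changes of 0.10, 0.42 and 0.39. The part of VE content in the levels of the basement membrane genes was not tested.

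Parietal endoderm lays down Reichert's membrane, which is rich in these same proteins. Its 8 markers summed to 193.7 and 225.2 CPM in SO+ and 245.3, 275.8 and 198.2 CPM in SO-. Of the 7 tested, 0 passed in edgeR, beside 2.35% of all genes, and 1 had an unadjusted p under 0.05, beside 13.7%. Thbd had at most 6 counts in any embryo, while Srgn, Cited1 and Pth1r made up most of the sum. The part of parietal endoderm was not tested.

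Markers of the epiblast did not move together. Their summed level was 5853 and 5213 CPM in SO+ and 3201, 2882 and 4089 CPM in SO-, and without Dnmt3b, the most abundant of them, 1874 and 1937 CPM in SO+ and 1481, 1439 and 1778 CPM in SO-. Of the 7, 2 fell, the DNA methyltransferase Dnmt3b by 0.99 (edgeR adjusted p = 0.00392) and the chromatin factor Utf1 by 2.08 on the log2 scale (edgeR adjusted p = 0.000406). The call on Dnmt3b was lost without SO- embryo 1 (edgeR adjusted p = 0.122) or SO- embryo 2 (0.102), and 4 of 7 passed without SO+ embryo 2, of which 1 was higher in SO-. In edgeR 2 of 7 were called, beside 2.35% of all genes, and 4 had an unadjusted p under 0.05, beside 13.7%. Of these 4, 3 were lower in SO-. Estimates were above 0 for 2 of 7, with a median log2 fold change of -0.23. Fgf5, Pou3f1 and Otx2 were named after their values were seen. Fgf5 had 0.38 (unadjusted p = 0.0279 in edgeR) and Pou3f1 had -0.84 (unadjusted p = 0.0334). Otx2 had -0.23, with all SO- values below both SO+ values. The epithelial genes Epcam and Cdh1 of the same list had log2 fold changes of 0.04 and -0.09. Of the 7 ExE markers, 4 were tested and Hand1 rose by 3.04 on the log2 scale (edgeR adjusted p = 0.00754). That call was lost without SO- embryo 1 (edgeR adjusted p = 0.0783) or 2 (0.128). Cdx2 and Tfap2c had log2 fold changes of 0.51 and 0.20. Elf5, which was not tested, had at most 11 counts. It stood at 0.109 and 0.186 CPM in SO+ and 0.487, 0 and 2.65 CPM in SO-. The summed ExE level was 12.4 and 15.6 CPM in SO+ and 29.7, 38.4 and 24.4 CPM in SO-, and without Hand1 it was 11.3 and 12.9 CPM in SO+ and 16.1, 14.3 and 12.3 CPM in SO-. Ascl2 and Esrrb, named after their values were seen, ran from 0.487 to 4.68 CPM and from 0 to 0.980 CPM, both highest in SO+ embryo 1. Of the markers of endothelium, decidua and maternal blood, Cdh5, Prl8a2, Ptprc and Hbb-bs had 0 counts in all 5 embryos. The stromal gene Dcn, on 1 to 125 counts, stood at 1.38 and 4.64 CPM in SO+ and 1.95, 0.892 and 1.93 CPM in SO-, with overlap. Hba-a1 and Vwf had 7 counts each in SO+ embryo 2. The 4 endothelial markers summed to 0.0726 and 4.86 CPM in SO+ and 18.3, 17.8 and 8.92 CPM in SO-. Kdr alone stood at 0.0363 and 4.60 CPM in SO+ and 18.0, 17.8 and 8.44 CPM in SO-, nearly all of the SO- sums. The 8 decidual and blood markers summed to between 1.56 and 6.16 CPM. Of the 4 endothelial markers only Kdr was tested (log2 fold change 2.64, edgeR adjusted p = 0.222, and 7.11e-07 without SO+ embryo 2), and of the 8 decidual and blood markers only Pecam1 (2.33, edgeR adjusted p = 0.411).

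Ratios within an embryo do not depend on library scaling and show the balance between partner chains. Lama5 transcripts exceeded Lama1 transcripts per kb by 15.6 and 15.2 times in SO+ and by 11.2, 10.01 and 13.7 times in SO-. Every SO- ratio was below both SO+ ratios, a difference in mean log2 ratio of -0.41. The SO- ratios rested on 49, 18 and 39 Lama1 counts in embryos 1, 2 and 3, and counting error of the ratios was not calculated. An exact two-sided permutation test, with 10 ways to divide the embryos, gave p = 0.2, and p = 0.4 after Benjamini-Hochberg adjustment over the 4 ratios computed, in a design whose smallest p is 0.1.

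The ratio of Lamc1 to Lamb1 per kb was 0.557 and 0.513 in SO+ and 0.435, 0.477 and 0.404 in SO-. These again did not overlap, with a difference of -0.29 in mean log2 ratio and the same exact permutation p of 0.2 (adjusted 0.4). Lamb1 thus exceeded Lamc1 in each embryo, by 1.80 to 2.48 times, and Lama1 and Lama5 together exceeded Lamc1 by 2.35 to 3.69 times.

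Partner ratios of the other pairs overlapped between genotypes. Col4a2 exceeded Col4a1 per kb by 1.41 and 1.23 times in SO+ and by 1.101, 1.29 and 1.28 times in SO- (difference -0.11 in mean log2 ratio, exact permutation p = 0.6, adjusted 0.6). Nid2 exceeded Nid1 by 18.7 and 11.2 times in SO+ and by 9.17, 12.8 and 13.6 times in SO- (difference -0.30, exact permutation p = 0.6, adjusted 0.6), and without SO+ embryo 1 the difference was 0.07. Nid2 made up 90.2% to 94.9% of nidogen transcripts per kb.

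**Figure D4:**
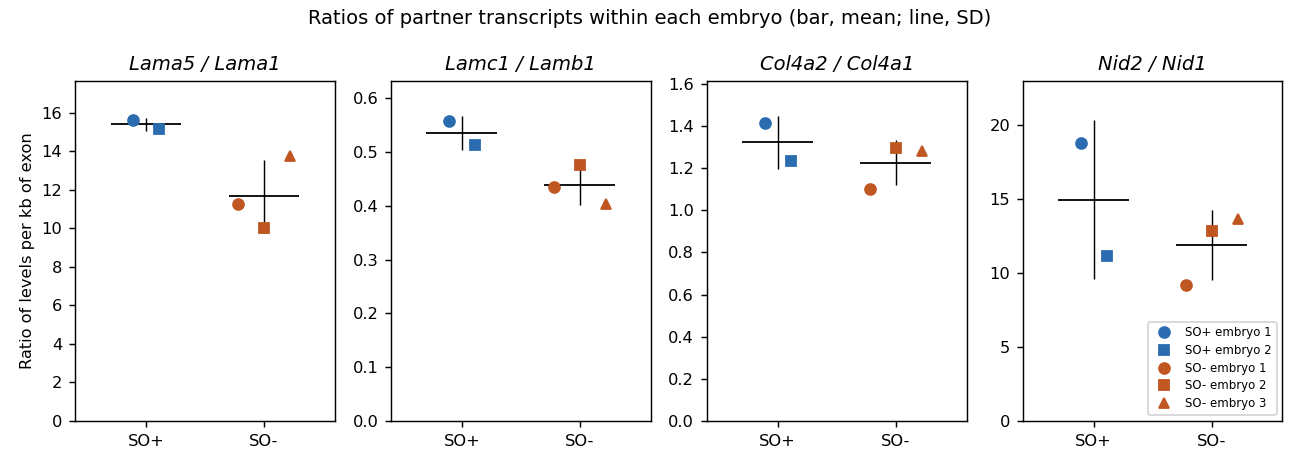
Ratio of partner transcripts per kb of exon in every embryo, in 4 panels with axes from 0, with points for embryos, horizontal bars for the mean and vertical lines for the SD (n = 2 SO+ and n = 3 SO-). Ratios of the genotypes are separate for Lama5 to Lama1 and for Lamc1 to Lamb1 and overlap for Col4a2 to Col4a1 and Nid2 to Nid1.

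Other chains of the same families were mostly scarce. Of the 7 further laminin chains of the mouse, 3 reached the test, 2 had 0 counts in all embryos, and the 7 together summed to between 8.28 and 23.3 CPM. The most abundant of them, Lamb2, named after its values were seen, stood at 2.36 and 1.73 CPM per kb in SO+ and 0.841, 1.91 and 1.51 CPM per kb in SO-, in the range of the set's lowest members. The 4 further collagen IV chains were all below the filter, with at most 24 counts in any embryo. 

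A further list of 36 basement membrane genes had 17 tested and 0 called in edgeR, beside 2.35% of all genes. An unadjusted p under 0.05 was seen for 3 of 17, beside 13.7% of all genes. Estimates were above 0 for 12 of 17, with a median log2 fold change of 0.15. The collagen XVIII gene Col18a1 stood at 211 and 187 CPM in SO+ and 162, 149 and 175 CPM in SO-, without overlap (-0.29, edgeR adjusted p = 0.274). Fibulin 1, Fbln1, which binds laminin and nidogen, stood at 157 and 163 CPM in SO+ and 200, 222 and 176 CPM in SO-. It also had no overlap, with a log2 fold change of 0.31 (edgeR adjusted p = 0.269). Of the 17 genes, 7 had no overlap, 4 higher and 3 lower in SO-, beside 29.3% of all genes. Peroxidasin, Pxdn, which forms the sulfilimine cross-links of collagen IV, had 0.15 (edgeR adjusted p = 0.740).

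Of 27 genes for the folding, modification and secretion of matrix proteins, 22 were tested and 1 rose. Serpinh1 encodes Hsp47, the collagen-specific chaperone of the endoplasmic reticulum. It stood at 157.3 and 141.5 CPM in SO+ and at 239.7, 301.6 and 254.7 CPM in SO-, all above both SO+ values. Its rise on the log2 scale was 0.82 ± 0.12 (SE; edgeR adjusted p = 0.00366), and without SO- embryo 2 it was 0.72 with an adjusted p of 0.0755. Its collagen IV clients Col4a1 and Col4a2 had the estimates of 0.11 and 0.00017 given above, although whether these differ from that of Serpinh1 was not tested. The general folding factors P4hb, which is also the beta subunit of prolyl 4-hydroxylase, Pdia6 and Hspa5 had log2 fold changes of 0.14, 0.09 and 0.19, with edgeR adjusted p of 0.575, 0.819 and 0.597. The list had 17 of 22 estimates above 0 and a median of 0.16. It had 1 gene called, beside 2.35% of all genes, and 3 at an unadjusted p under 0.05, beside 13.7%. These were Serpinh1 above 0 and the collagen-modifying enzymes P4ha2 (-0.77, unadjusted p = 0.0217 in edgeR's fit) and Plod1 (-0.41, unadjusted p = 0.0447) below 0 without overlap. The latter genes were named after their values were seen.

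Of 26 genes for receptors and their glycosylation, 21 were tested and 1 rose. Gpc3, a heparan sulphate proteoglycan anchored to the cell surface, stood at 542 and 627 CPM in SO+ and at 925, 900 and 729 CPM in SO- (log2 fold change 0.54 ± 0.12 SE, edgeR adjusted p = 0.0313). The call was lost in limma-voom (adjusted p = 0.1003) and without SO+ embryo 1 (0.139), SO- embryo 1 (0.315) or SO- embryo 2 (0.265). Itgb1, the beta subunit shared by the laminin- and collagen-binding integrins, stood at 202 and 231 CPM in SO+ and 303, 293 and 289 CPM in SO-. Its log2 fold change of 0.45 ± 0.11 (SE) lay at the threshold, with an adjusted p of 0.0512 in edgeR, 0.0162 in DESeq2 and 0.0251 in edgeR without SO+ embryo 2. The alpha subunits Itga3 and Itga6, which pair with Itgb1 in laminin receptors and are named after their values were seen, had estimates below 0 without overlap, at -0.91 ± 0.25 (SE; edgeR adjusted p = 0.0846) and -0.80 ± 0.24 (SE; edgeR adjusted p = 0.131). Dag1, which encodes dystroglycan, was also named after its values were seen. Its estimate was above 0 without overlap, at 0.50 ± 0.13 (SE; edgeR adjusted p = 0.0773). Gpc4 had 0.31 (edgeR adjusted p = 0.311). Estimates were above 0 for 15 of 21 genes with a median of 0.14. Of the 21, 1 was called in edgeR, beside 2.35% of all genes, and 8 had an unadjusted p under 0.05, beside 13.7%. Of these 8, 5 were higher and 3 lower in SO-. The genotypes did not overlap for 9 of 21, beside 29.3% of all genes.

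Genes for matrix remodelling numbered 32, of which 25 were tested. In edgeR 0 were called, beside 2.35% of all genes, and 4 had an unadjusted p under 0.05, beside 13.7%. Estimates were above 0 for 19 of 25, with a median of 0.21. The lysosomal proteases Ctsl and Ctsb and the heparan sulphatase Sulf1 were the highest, with log2 fold changes of 0.12, 0.18 and 0.21 and edgeR adjusted p of 0.787, 0.725 and 0.727.

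**Figure D5:**
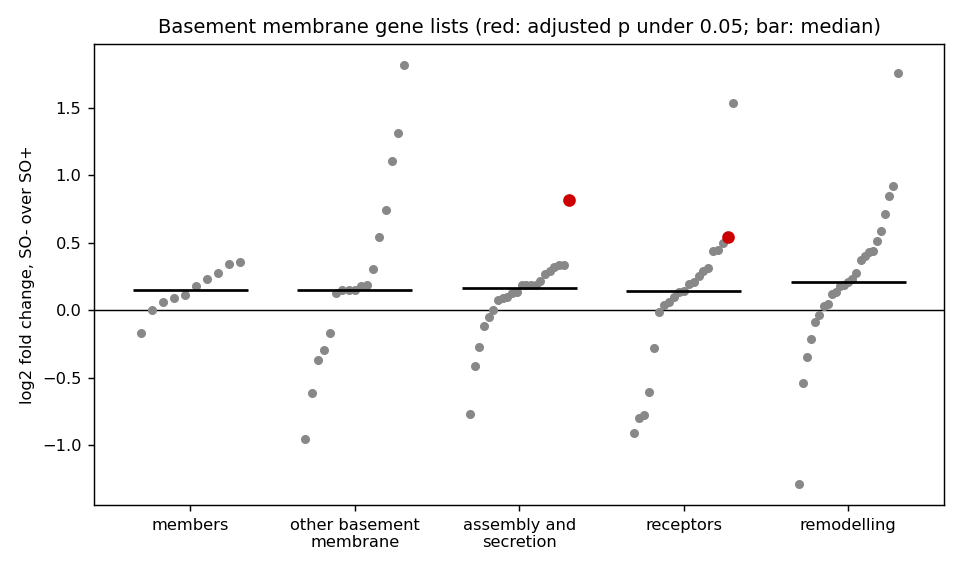
Log2 fold change, SO- over SO+, of each tested gene in the basement membrane set and in 4 further lists, with genes sorted within a list, horizontal bars for the median and red points for an adjusted p under 0.05. The set lies between -0.17 and 0.36, and the only red points are Serpinh1 at 0.82 and Gpc3 at 0.54.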

How the data were processed

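RNA from single embryos was amplified by SmartSeq2 with 15 PCR cycles and no molecular identifiers. The authors aligned reads to GRCm38/mm10 with STAR and deposited raw counts per gene from HTSeq, as the submitters' processing notes and the paper state. Strand use and duplicate removal are not given in the sources used here. Each embryo is a separate animal and sample.

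Counts were tested in R 4.3.3 with edgeR 4.0.16 (TMM, filterByExpr, quasi-likelihood F test, genotype alone), with Benjamini-Hochberg adjustment over all 12067 genes at a threshold of 0.05. SE was calculated from the log2 fold change and its F statistic, by dividing the former by the root of the latter. Exon lengths and coordinates came from GENCODE M21, and promoters from RefSeq (GRCm38.p6). Alternatives were DESeq2 1.42.0, limma-voom 3.58.1, other scalings and filters, GC and length trends, a replicate block and each embryo left out. The code was tested on simulated counts. Of the further lists, called genes and the 3 highest by mean CPM were named, and any others, such as marker genes near 0 counts, were named after their values were seen. The members and lists were chosen with earlier results of these data known.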

Additional observations from a re-analysis of the deposited data

How the results depend on the processing

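Of 150 alternative estimates for the 10 basement membrane genes, 133 kept direction and side of the threshold, 16 changed direction, all without passing the threshold, and 1 passed it. Lamb1, Col4a1 and Sparc kept their direction throughout. Col4a2, with an estimate near 0, turned to -0.0067 in DESeq2, -0.041 in limma-voom, -0.017 with upper quartile factors, -0.0061 with library totals, -0.034 without a filter, -0.00020 with the filter at 5 CPM and -0.017 with the length trend removed. With each embryo left out, estimates ran from -0.047 to 0.55 for Lama1, -0.46 to 0.18 for Lama5, -0.036 to 0.20 for Lamc1, -0.089 to 0.054 for Col4a2, -0.068 to 0.90 for Nid1, -0.041 to 0.20 for Nid2, -0.019 to 0.64 for Hspg2, -0.072 to 0.26 for Pdia6, -0.010 to 0.41 for Hspa5, -0.014 to 0.46 for Sulf1, -0.18 to 0.012 for Srgn, -0.056 to 0.085 for Epcam, -0.20 to 0.032 for Cdh1, -0.035 to 1.28 for Cdx2 and -0.19 to 0.73 for Tfap2c, and the Nid2 to Nid1 ratio from -0.68 to 0.070.

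Calls over all genes were 91 in limma-voom, 381 in DESeq2 and 35 to 573 with an embryo left out (180 and 573 without SO+ embryos 1 and 2, 46 and 35 without SO- embryos 1 and 2), and 0 of 10 members were called in each of these. Leaving out an embryo gave 0 to 1 calls among other basement membrane, folding, ExE and endothelial genes, 0 to 2 among receptors, 0 to 5 among VE markers and 1 to 4 among epiblast markers. Receptor calls were 2 in DESeq2, with RLE size factors, with the 5 CPM filter and with the length trend removed, and 0 in limma-voom. The cause of these changes was not tested. Same-numbered embryos are different animals and share only a number (correlations of deviations 0.0077 and 0.11). No SO+ embryo has the number 3, so a block by number takes SO- embryo 3 out of the genotype difference. That difference then rests on embryos 1 and 2 of each genotype, paired by number alone. With the replicate number as a block, 929 genes were called (7.7%), among them 1 member, Lamb1 (0.45, adjusted p = 0.0377), 1 other basement membrane gene, 2 folding, 3 receptor, 2 remodelling, 9 VE, 2 parietal endoderm, 4 epiblast and 1 endothelial gene, and the Epcam estimate turned to -0.048. In SO- embryo 2 the smallest member count was 16, so counting error limits Lama1, Nid1 and Hspg2 most.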
